A study of Mus musculus with 6 samples.

Results

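Genes of the TNF receptor signalling complex were examined in 4T1 cells that carry an inducible LINE-1 (L1) retrotransposon. The 10 genes were chosen by symbol, and all 10 were found among the 24421 genes of the count table: the receptor genes Tnfrsf1a and Tnfrsf1b, the adaptor and kinase genes Tradd and Ripk1, Traf1 and Traf2, the ubiquitin ligase genes Birc2 and Birc3, and the inhibitor genes Tnfaip3 and Tnip1. 4T1 is a mouse breast carcinoma line, given the strain BALB/cfC3H in the labels. In both groups the cells were selected with blasticidin for a PiggyBac-integrated cassette, in which the EF1α promoter drives the Tet-On 3G activator, and a bidirectional doxycycline-responsive promoter drives firefly luciferase and a recoded mouse L1 (ORFeus) with an antisense Gaussia luciferase reporter of retrotransposition. One group was left untreated (its treatment tag reads vehicle), and the other received 400 ng/mL of doxycycline during 48 h. Each group had 3 libraries of total RNA. Cells without the cassette were not analysed here, so an action of doxycycline itself and induction of the L1 cannot be told apart. The cassette's own transcript could have checked the labels, but was not analysed here. The second group is therefore called the libraries labelled doxycycline, and every direction below rests on the labels.

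TNF is a cytokine that binds TNFR1, found on most cell types, and TNFR2, whose expression is more restricted. Ligand-bound TNFR1 recruits the adaptor TRADD, the kinase RIPK1, TRAF2 and the ubiquitin ligases cIAP1 and cIAP2, whose ubiquitin chains serve as a platform for the kinases that activate NF-κB and MAP kinases. TNFR2 lacks a death domain and binds TRAF2 directly. A20, encoded by Tnfaip3, and its partner ABIN-1, encoded by Tnip1, restrain the pathway, and Tnfaip3, Birc3 and Traf1 are known targets of NF-κB. When the complex is disturbed, RIPK1 can pass to a cytosolic complex with FADD and caspase-8 that leads to cell death.

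Of the 10 genes, 1 was lower in the libraries labelled doxycycline and 0 were higher when p-values from the quasi-likelihood test of edgeR, adjusted by Benjamini-Hochberg over 13084 tested genes, were held to 0.05. The lower gene was Tnfrsf1b, with a log2 fold change of -0.33. Over all tested genes, 2.16% were lower and 0.925% were higher by the same rule. At an unadjusted p under 0.05 there were 2 lower members, Tnfrsf1b and Tnfaip3, and 0 higher ones, where 16.2% of all tested genes passed in either direction. The groups did not overlap for the same 2 members, which is close to the background, since they did not overlap for 21.3% of all tested genes. The median log2 fold change of the members was -0.02, with 4 values above 0 and 6 below, and it was 0.002 over all tested genes. DESeq2's Wald test called 2 members lower and 0 higher, and over all genes it called 317 lower and 160 higher.

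Library totals ranged from 31653464 to 43631312 counts, and 3 counts, the limit taken for a count of 0, correspond to 0.0688 to 0.0948 CPM, counting error only. CPM are counts after every library is brought to the same total, here scaled by TMM, a method that balances libraries on the bulk of their genes. All 10 members passed the filter on low counts, and each had at least 272 counts in every library. The epithelial markers Epcam, Krt8 and Krt18 were expressed in every library, at 32 to 37.1, 381.1 to 453.4 and 614.7 to 669.1 CPM. The pan-leukocyte marker Ptprc did not exceed 0.561 CPM and the macrophage marker Adgre1 was at 0 in all 6 libraries. Another macrophage marker, Cd68, was detected in every library, at 8.54 to 11.1 CPM, and gave most of the sum of its list. The 7 macrophage and leukocyte markers summed to 9.79 to 12 CPM in untreated libraries and to 9.27 to 11.6 CPM in libraries labelled doxycycline, and 0 of the 2 that could be tested were called. The 5 fibroblast markers summed to 35.7 to 38.7 CPM in untreated libraries and to 28 to 29.6 CPM in the other group. Nearly all of that sum was Pdgfra, which was called lower (log2 fold change -0.40), while Dcn and Pdgfrb stayed at or below 0.15 CPM. Of the 6 epithelial markers, Krt19 was called lower (log2 fold change -0.31). The part of these 2 changes in the results below was not tested. In bulk RNA, fewer cells of a kind and less RNA per cell cannot be told apart.

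Per kilobase of exon, which allows genes to be compared, the members spanned a 7.1-fold range of levels in untreated libraries. Tnfaip3 was the highest at 28.1 ± 0.609 CPM per kb (SD, n = 3), above 81.5% of the tested genes with a length. Tnfrsf1a followed at 19.4 ± 0.97, Tnip1 at 16.4 ± 1.09 and Tnfrsf1b at 12.1 ± 0.914 CPM per kb. These 4 stood apart from one another and from the rest without overlap between neighbours in the order. Traf1 (7.79 ± 0.405 CPM per kb) and Traf2 (6.75 ± 0.497) came next, also without overlap. Ripk1 (5.74 ± 0.157 CPM per kb), Birc2 (5.6 ± 0.106) and Tradd (5.22 ± 0.39) followed. Ripk1 overlapped Birc2, and Birc2 overlapped Tradd, so their order is not resolved by these libraries. Birc3 was the lowest, at 3.96 ± 0.143 CPM per kb. In the libraries labelled doxycycline, Tnfaip3 (25 ± 0.812 CPM per kb) was again highest and Birc3 (3.75 ± 0.281) again lowest.

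**Figure D1:**
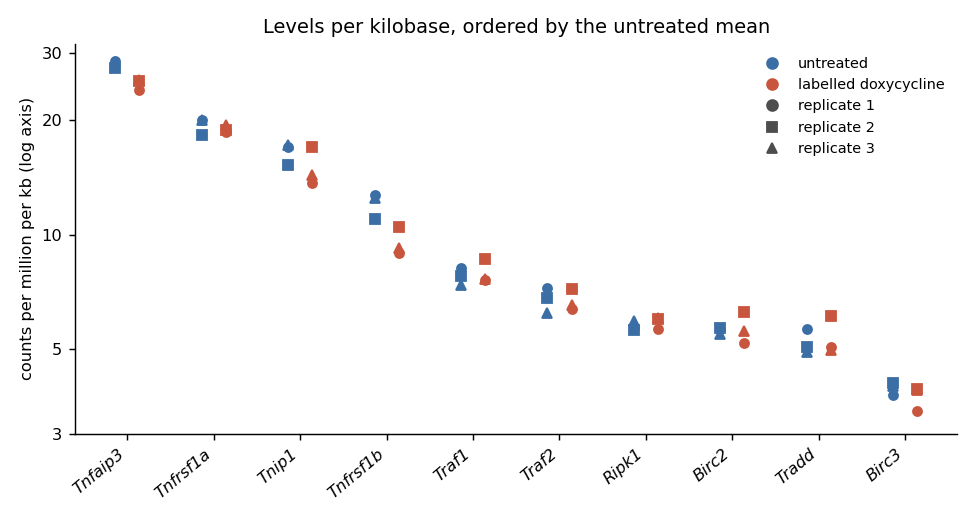
Level of each member in CPM per kb of exon (log axis) in each library, ordered by the untreated mean, with untreated libraries in blue, libraries labelled doxycycline in red and the replicate number by symbol. Tnfaip3 is highest at 28.1 CPM per kb and Birc3 lowest at 3.96 CPM per kb in untreated libraries.

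Tnfrsf1b was picked as the called gene, and the inhibitors Tnfaip3 and Tnip1 for letters like the binding motif of NF-κB. The start regions of these 3 members are shown as a description only. Each is 300 bases, from 250 before to 50 after the start of the transcript, from RefSeq on GRCm38.p6 and read on the strand of the gene. Capitals mark matches of GGANNTTCC or GGANNTCCC on either strand.
Tnfrsf1b, chr4:145246821-145247120, minus strand: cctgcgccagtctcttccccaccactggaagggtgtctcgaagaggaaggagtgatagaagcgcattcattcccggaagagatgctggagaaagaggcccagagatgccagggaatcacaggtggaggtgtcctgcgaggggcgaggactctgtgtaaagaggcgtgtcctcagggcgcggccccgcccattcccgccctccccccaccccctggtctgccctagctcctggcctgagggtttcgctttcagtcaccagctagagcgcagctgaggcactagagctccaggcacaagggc
Tnfaip3, chr10:19015361-19015660, minus strand: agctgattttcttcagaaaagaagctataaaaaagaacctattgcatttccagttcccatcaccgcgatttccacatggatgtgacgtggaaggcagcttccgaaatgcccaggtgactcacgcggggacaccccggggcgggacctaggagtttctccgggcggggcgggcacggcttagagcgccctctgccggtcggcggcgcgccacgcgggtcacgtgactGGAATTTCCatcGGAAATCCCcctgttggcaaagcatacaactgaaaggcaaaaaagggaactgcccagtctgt
Tnip1, chr11:54962891-54963190, minus strand: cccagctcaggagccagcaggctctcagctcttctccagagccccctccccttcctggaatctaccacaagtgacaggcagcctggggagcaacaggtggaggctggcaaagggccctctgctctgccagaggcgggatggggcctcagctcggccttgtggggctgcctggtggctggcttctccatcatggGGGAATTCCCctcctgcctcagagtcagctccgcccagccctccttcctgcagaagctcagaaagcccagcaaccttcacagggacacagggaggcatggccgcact
In Tnfaip3 the matches GGAATTTCC and GGAAATCCC began 24 and 12 bases before the start of the transcript, and the first of them fits GGANNTTCC on both strands. In Tnip1 the matches GGGAATTCC and GGAATTCCC, 1 on each strand and overlapping, began 57 and 56 bases before it. Such windows were found for 9 of the 10 members, not for Tradd, and 2 of the 9 held a match. Ripk1, Birc2 and Tnfaip3 have a pair of windows each, so the members had 12 windows, of which 2 held a match. A second window of Tnfaip3, at chr10:19011914-19012213, held 0. The windows of Tnfrsf1b, Traf1 and Birc3 also held 0. Of all 32851 windows of the same length, 4.26% held GGANNTTCC, 4.3% held GGANNTCCC and 8.35% held either. A match of letters is a description and not a binding site.

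Among the receptors, Tnfrsf1b differed between the groups and Tnfrsf1a did not pass the test. Tnfrsf1b (chr4:145212368-145246870, minus strand, protein-coding) encodes TNFR2. It stood at 48.4, 42.1 and 47.8 CPM in untreated replicates 1 to 3 and at 34.3, 40.1 and 35.3 CPM in replicates 1 to 3 labelled doxycycline. All 3 untreated values lay above the others, but untreated replicate 2 and doxycycline replicate 2 were separated by a narrow gap. The mean fell from 46.1 ± 3.49 to 36.6 ± 3.14 CPM (SD, n = 3 each), a fold of 0.79 with a 95% interval of 0.71 to 0.88. This is -0.33 as a log2 fold change (adjusted p 0.0112 by edgeR, SE 0.07). The call was lost without untreated replicate 1 (edgeR adjusted p 0.0953), without untreated replicate 3 (0.0974) and without doxycycline replicate 3 (0.0818), while the log2 fold change stayed between -0.41 and -0.29 in all 6 fits that each left out 1 library. No other gene of the annotation overlapped it.

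Tnfrsf1a (chr6:125349723-125362483, plus strand, protein-coding) encodes TNFR1, the receptor with a death domain. Its values were 43.1, 39.4 and 43 CPM in untreated libraries and 40.1, 40.5 and 41.9 CPM in libraries labelled doxycycline. The second group lay wholly inside the range of the first. Its log2 difference was -0.04 (adjusted p 0.84 by edgeR, SE 0.06), with a 95% interval of -0.17 to 0.09. Within each library the ratio of Tnfrsf1b to Tnfrsf1a, per kb, was 0.635, 0.603 and 0.627 in untreated libraries. It was 0.482, 0.56 and 0.475 in libraries labelled doxycycline, so the ratio was lower in each of them than in any untreated library. This ratio does not depend on the scaling of libraries. The mean difference was -0.30 on the log2 scale, and the exact two-sided permutation test gave p = 0.1, the smallest that 3 against 3 libraries allow (0.267 after adjustment over 4 ratios). The design therefore cannot bring this comparison of the receptors under 0.05 by a permutation test.

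**Figure D2:**
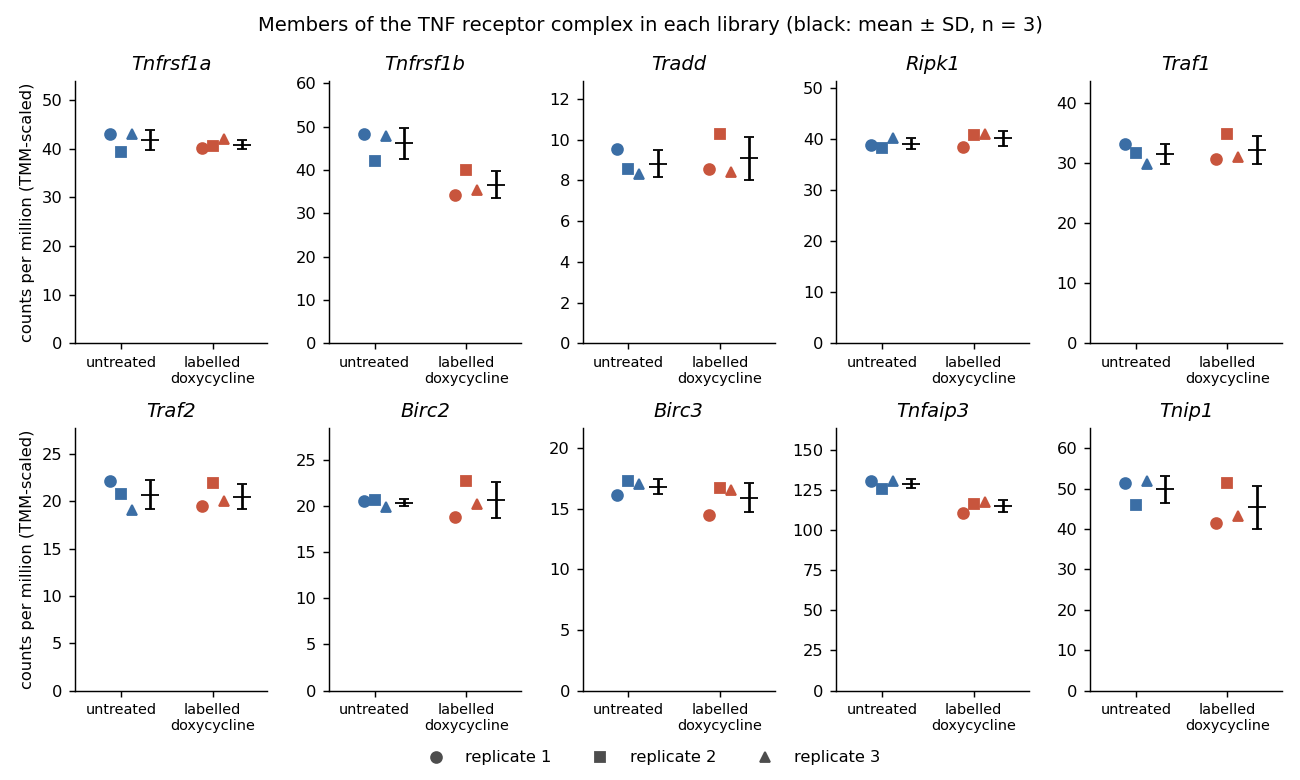
CPM of each of the 10 members in each library (axis from 0 in every panel), with replicates by symbol and mean ± SD over 3 libraries in black. The groups are separate for Tnfrsf1b (42.1 CPM or more against 40.1 or less) and Tnfaip3 (125.8 or more against 117.3 or less) and overlap for the other 8.

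The adaptor and the kinase did not pass the test. Tradd (chr8:105258575-105264594, minus strand, protein-coding), the adaptor that joins the death domain of TNFR1 to the rest of the complex, had 9.56, 8.54 and 8.33 CPM in untreated libraries. In libraries labelled doxycycline it had 8.55, 10.3 and 8.41 CPM, and doxycycline replicate 2 was the highest of all 6. Its interval was the widest among the members, at -0.20 to 0.29 around a log2 fold change of 0.05 (edgeR adjusted p 0.896). Tradd also had the fewest counts of the members.

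Ripk1 (chr13:34002225-34035170, plus strand, protein-coding) encodes the kinase that carries both the NF-κB and the death signal. It had 38.8, 38.3 and 40.3 CPM in untreated libraries and 38.5, 40.9 and 41.1 CPM in libraries labelled doxycycline, with overlapping ranges. Its log2 fold change, 0.04, was not called (95% interval -0.09 to 0.17, edgeR adjusted p 0.83). Exons of Ripk1 overlap those of Serpinb6a on the opposite strand, so reads from there could be counted for either gene or lost. Of its 50-base words, 5.54% also occur in the pseudogene Gm17084, which is not among the genes of the count table. Reads from those words could be counted for Ripk1 or lost.

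TRAF2 links the receptors to the cIAP ligases, and TRAF1 forms mixed trimers with it. Traf2 (chr2:25517982-25546940, minus strand, protein-coding) had 22.2, 20.8 and 19.1 CPM in untreated libraries and 19.5, 22 and 20 CPM in libraries labelled doxycycline. For Traf2 the log2 fold change was -0.01 (95% interval -0.19 to 0.16, edgeR adjusted p 0.964). Traf1 (chr2:34941750-34961812, minus strand, protein-coding) had 33.2, 31.6 and 29.9 CPM in untreated libraries. The libraries labelled doxycycline had 30.7, 34.9 and 31 CPM, and the ranges overlapped for both genes. The log2 fold change of Traf1 was 0.03 (95% interval -0.12 to 0.18, edgeR adjusted p 0.883). The ratio of Traf1 to Traf2, per kb, lay between 1.13 and 1.2 in all 6 libraries, the steadiest of the 4 ratios by its SD in both groups (exact permutation p = 0.2, adjusted 0.267).

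The ligase genes Birc2 and Birc3, which encode cIAP1 and cIAP2, are neighbours on chromosome 9 in the same orientation. Birc2 (chr9:7818226-7837131, minus strand, protein-coding) had 20.6, 20.7 and 19.9 CPM in untreated libraries and 18.9, 22.8 and 20.3 CPM in libraries labelled doxycycline. The second group spread to both sides of the first. For Birc2 the log2 fold change was 0.02 (95% interval -0.15 to 0.20, edgeR adjusted p 0.926). Birc3 (chr9:7847468-7873205, minus strand, protein-coding) had 16.1, 17.3 and 17 CPM in untreated libraries and 14.5, 16.7 and 16.5 CPM in libraries labelled doxycycline. The ranges overlapped, and the log2 fold change was -0.07 (95% interval -0.26 to 0.11, edgeR adjusted p 0.743). The ratio of Birc3 to Birc2, per kb, was 0.672, 0.718 and 0.731 in untreated libraries and 0.66, 0.626 and 0.697 in libraries labelled doxycycline (exact permutation p = 0.2, adjusted 0.267). Of the 50-base words in their transcripts, 1.49% for Birc2 and 7.38% for Birc3 also occurred in transcripts of other genes, in part of each other, so a small share of reads could be counted for either or lost. For Tnfrsf1a, Tnfrsf1b, Tradd, Tnfaip3 and Tnip1 this share was 0%.

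The inhibitor Tnfaip3 lay just outside the threshold. Tnfaip3 (chr10:19000910-19015410, minus strand, protein-coding) encodes A20, an enzyme that edits and binds ubiquitin chains. It had 130.8, 125.8 and 130.5 CPM in untreated libraries and 110.4, 116.4 and 117.3 CPM in libraries labelled doxycycline. Every untreated library lay above every library labelled doxycycline. The means were 129.0 ± 2.8 and 114.7 ± 3.73 CPM (SD, n = 3 each), a fold of 0.89. The log2 fold change of -0.17 (SE 0.05, 95% interval -0.27 to -0.07) had an edgeR adjusted p of 0.0547. With upper-quartile scaling (edgeR adjusted p 0.0405), scaling on library size alone (0.0418), no filter on low counts (0.0318), a correction for GC content and length (0.00771) or DESeq2's Wald test (0.0227) it passed. It also passed without doxycycline replicate 2 (edgeR adjusted p 0.00734). Over the 15 alternatives its adjusted p ran from 0.00734 to 0.245, and its log2 fold change from -0.19 to -0.14.

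Tnip1 (chr11:54910787-54962956, minus strand, protein-coding) encodes ABIN-1, which brings A20 to ubiquitin chains. Its values were 51.4, 46 and 52 CPM in untreated libraries. They were 41.6, 51.5 and 43.2 CPM in libraries labelled doxycycline. Replicates 1 and 3 of that group lay below all untreated libraries, while replicate 2 lay among them. The log2 fold change was -0.13 (95% interval -0.29 to 0.02, adjusted p 0.402 by edgeR, SE 0.07). Without doxycycline replicate 2 it was -0.23 (edgeR adjusted p 0.0188). The ratio of Tnfaip3 to Tnip1, per kb, was 1.68, 1.8 and 1.65 in untreated libraries and 1.75, 1.49 and 1.79 in libraries labelled doxycycline (exact permutation p = 0.8, adjusted 0.8).

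**Figure D3:**
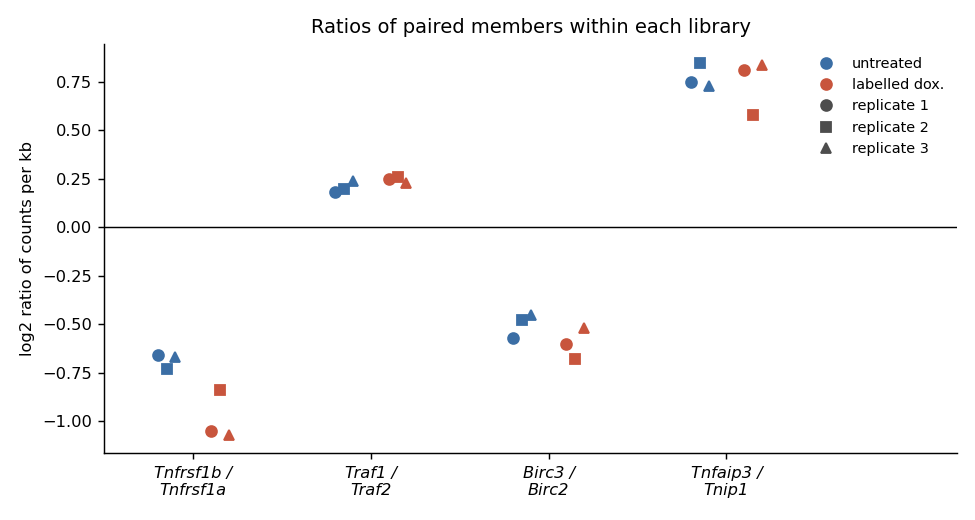
Log2 ratio of counts per kb for 4 pairs of members within each library, untreated in blue and labelled doxycycline in red, with replicates by symbol. The Tnfrsf1b to Tnfrsf1a ratio is separate between the groups (-0.73 or more against -0.84 or less), and the other 3 ratios overlap.

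Doxycycline replicates 1 and 2 marked the ends of their group over most members. Doxycycline replicate 2 was the highest of its group for 7 of the 10 members, and doxycycline replicate 1 was the lowest for 9. Summed over the members, the libraries labelled doxycycline held 357.1, 396.0 and 375.0 CPM for replicates 1 to 3, and the untreated libraries held 390.5 to 414.0 CPM. Without doxycycline replicate 2, 3 members were called lower (Tnfrsf1b, Tnfaip3 and Tnip1). Without untreated replicate 1, untreated replicate 3 or doxycycline replicate 3, 0 were. The number of calls over all genes moved in the same way, at 269 higher and 487 lower without doxycycline replicate 2 against 121 and 283 with all libraries.

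**Figure D4:**
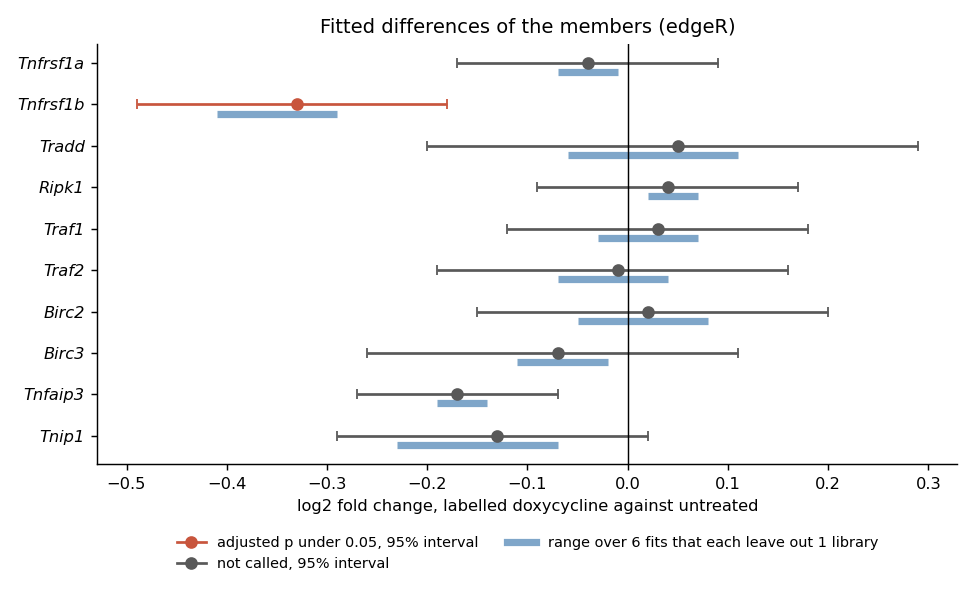
Log2 fold change of each member, libraries labelled doxycycline against untreated, with its 95% interval (edgeR), and as blue bars the range over the 6 fits that each left out 1 library. The interval of Tnfrsf1b runs from -0.49 to -0.18, and those of 8 of the other 9 members include 0, the exception being Tnfaip3 (-0.27 to -0.07).

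The wider pathway was covered by 9 lists with 102 symbols, of which 101 were in the table and 76 could be tested. Of these, 4 were called lower and 0 higher (edgeR), a share of 5.26% beside the 2.16% of all tested genes that were lower. Without untreated replicate 3 or doxycycline replicate 3, 0 were called lower, 1 without untreated replicate 1 or 2, and 7 without doxycycline replicate 2. The 4 were the ligand gene Tnfsf9, the receptor genes Tnfrsf9 and Ngfr, and the A20-binding protein gene Tnip3. At an unadjusted p under 0.05, 9 were higher and 10 lower, where over all 13084 tested genes 948 were higher and 1171 lower (16.2%). The same background holds for each list below. DESeq2's Wald test called 2 lower (Tnfsf9 and Tnfrsf9) and 0 higher, and 0 in each of the lists for which 0 edgeR calls are given below. The median log2 fold change was -0.03.

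The TNF ligands themselves were hardly detected. Untreated replicates 1 to 3 had 4, 2 and 2 counts of Tnf and the replicates labelled doxycycline had 2, 0 and 0, and Lta, the gene of lymphotoxin-α, had 3, 6 and 8 against 7, 1 and 4. Both are near the limit of a count of 0, were not tested, and a difference between the groups was not detectable at this depth. Of 18 ligand genes of the superfamily, 5 could be tested and 1 was called lower by edgeR. At an unadjusted p under 0.05 in the same test, 0 were higher and 2 lower. Tnfsf9, the gene of 4-1BB ligand, had 15.2, 13 and 14 CPM in untreated libraries and 11.6, 10.5 and 9.51 CPM in libraries labelled doxycycline, without overlap. It fell by 0.42 on the log2 scale (adjusted p 0.0255 by edgeR, SE 0.10). The call was lost without untreated replicate 1 (edgeR adjusted p 0.178), untreated replicate 3 (0.113) or doxycycline replicate 3 (0.15).

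Of 23 further receptor genes, 14 could be tested, with log2 fold changes from -1.03 to 0.85, 7 above 0 and 7 below. The genes at the ends of this range were not called (edgeR adjusted p 0.0667 and 0.244). Their group means were at most 1.86 CPM. By edgeR 2 were called lower and 0 higher, beside 2.16% lower and 0.925% higher among all tested genes. Before adjustment, 4 were higher and 5 lower with p under 0.05 in the same test, a limit that 16.2% of all tested genes met in either direction. Tnfrsf9, which encodes 4-1BB, the receptor of the ligand above, had 8.79, 10.4 and 10.8 CPM in untreated libraries and 7.89, 7.13 and 6.87 CPM in libraries labelled doxycycline. The groups did not overlap, and the log2 fold change was -0.45 (adjusted p 0.0383 by edgeR, SE 0.12). Ngfr, which encodes the low-affinity neurotrophin receptor, had 3.67, 3.69 and 3.69 CPM in untreated libraries and 2.55, 2.4 and 2.04 CPM in libraries labelled doxycycline. Its groups were also separate, at a log2 fold change of -0.66 (adjusted p 0.044 by edgeR, SE 0.18). The Tnfrsf9 call was lost without untreated replicate 2 (edgeR adjusted p 0.157), untreated replicate 3 (0.226) or doxycycline replicate 3 (0.172), and under limma voom (0.0553). The Ngfr call was lost without any 1 of the untreated replicates (edgeR adjusted p 0.129, 0.123 and 0.15) or doxycycline replicate 3 (0.183), and under DESeq2 (0.0506), limma voom (0.0555) and the replicate block (0.0542). Of the 5 genes for the shedding of ligands and receptors, 4 were tested and 0 called.

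Among 8 partners of A20 and ABIN, 8 were tested and 1 was called lower, beside 2.16% of all tested genes. All 8 had a log2 fold change below 0, as had 6443 of all 13084 tested genes. Tnip3, the gene of ABIN-3, had 2.53, 3.33 and 3.04 CPM in untreated libraries and 1.82, 1.35 and 1.99 CPM in libraries labelled doxycycline. The groups did not overlap, and the log2 fold change was -0.79 (adjusted p 0.0481 by edgeR, SE 0.21). This call, at low counts, lies close to the threshold. It was kept in 1 of the 6 fits that each left out 1 library, the one without doxycycline replicate 1, and the adjusted p without one of the others reached 0.202. It was lost as well with the replicate block (edgeR adjusted p 0.0507), under DESeq2 (0.0529) and under limma voom (0.0689). The remaining 7 lay between -0.11 and -0.03.

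None of the 9 genes for the linear ubiquitin ligase and deubiquitinases was called by edgeR, with 1 higher and 2 lower at an unadjusted p under 0.05. Rnf31, which encodes the catalytic subunit HOIP of the ligase, had 21, 19.8 and 25.6 CPM in untreated libraries and 15.9, 21.5 and 18.3 CPM in libraries labelled doxycycline. The ranges overlapped, and the log2 fold change was -0.25 (edgeR adjusted p 0.245). Without doxycycline replicate 2 it was -0.37 (edgeR adjusted p 0.0148). Cyld, which encodes a deubiquitinase that trims the chains, had a log2 fold change of -0.10 (edgeR adjusted p 0.364), with 136.9, 149.6 and 142.5 CPM against 134.8, 123.8 and 141.5 CPM. The 8 other TRAF and IAP genes held 0 calls and log2 fold changes between -0.07 and 0.15.

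The kinases downstream of the complex were also without a call. Of 10 TAK1 and IKK genes tested, 0 passed even at an unadjusted p under 0.05, and their log2 fold changes ran from -0.14 to 0.12. Map3k7, the gene of TAK1, had 148.2, 150.5 and 145.0 CPM in untreated libraries and 153.0, 141.5 and 152.8 CPM in libraries labelled doxycycline (log2 fold change 0.01, edgeR adjusted p 0.941). Ikbkb and Ikbkg, for a catalytic and the regulatory subunit of the IKK complex, had log2 fold changes of 0.12 (edgeR adjusted p 0.314) and -0.11 (0.406). In the MAP kinase branch 10 of 11 genes were tested and 0 called, with 2 higher and 0 lower at an unadjusted p under 0.05.

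Of the 9 genes of the cell death complex described here, 8 were tested and 0 were called, with 1 higher and 0 lower at an unadjusted p under 0.05. Their log2 fold changes ran from -0.15 to 0.21. Casp8, which starts the caspase cascade, and Cflar, whose product restrains it, had log2 fold changes of -0.02 (edgeR adjusted p 0.889) and 0.07 (0.544). Ripk3 and Mlkl, of the necroptosis branch, were singled out after their values were seen. Ripk3 had 2 counts in doxycycline replicate 2 and 0 in the other 5 libraries, while Mlkl stood at 64.5 to 71.6 CPM, with a log2 fold change of 0.01 (edgeR adjusted p 0.929).

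**Figure D5:**
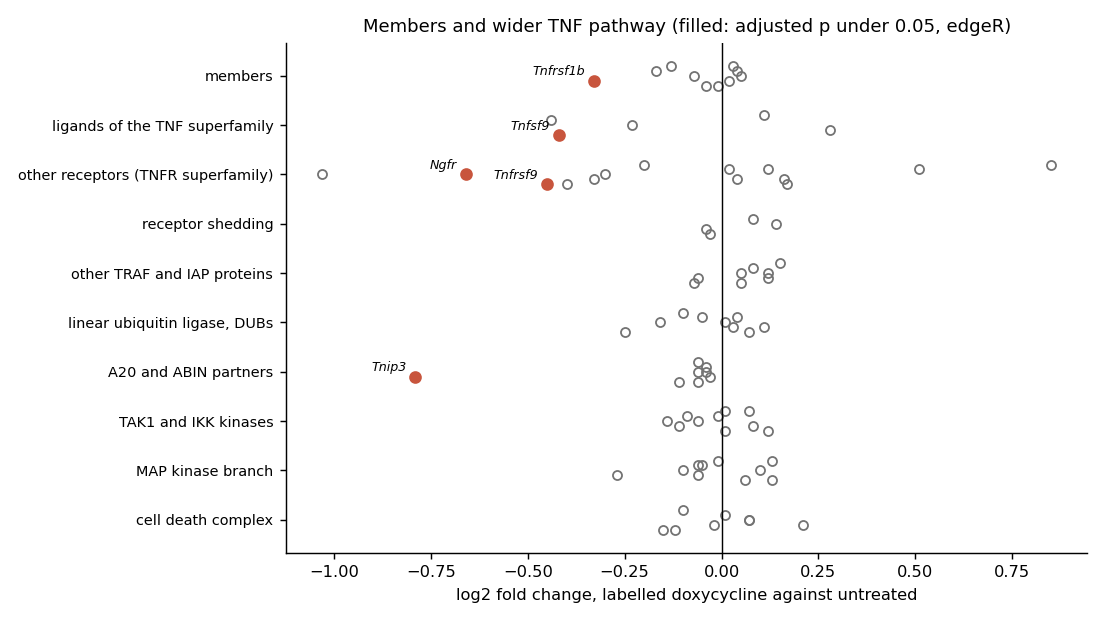
Log2 fold change, libraries labelled doxycycline against untreated, of every tested gene of the members and of 9 lists of the wider pathway, 1 point a gene, filled and named where the edgeR adjusted p was under 0.05. The 5 filled points all lie below 0, from -0.79 (Tnip3) to -0.33 (Tnfrsf1b).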

How the data were processed

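Total RNA depleted of ribosomal RNA was sequenced with a stranded kit. The authors made the reads with bcl2fastq 2.20, aligned them to mm10 (GRCm38) using STAR, and used featureCounts (the notes name Subread 1.6.2) for counting by gene. They deposited raw counts per gene, with replicates apart. The strand setting and the rule for multi-mapping reads are not given in the sources used here, so reads of overlapping or similar genes may be split or lost.

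The counts were tested with edgeR 4.0.16 in R 4.3.3 (quasi-likelihood, robust, TMM, group as the only term, genes kept by filterByExpr, Benjamini-Hochberg at 0.05). Intervals are 95% intervals from the fitted SE. CPM used TMM-scaled totals. Alternatives used DESeq2 1.42.0, limma 3.58.1 voom, 3 other scalings, 2 other filters, the replicate block, a GC content and length correction and leaving out each library. The edgeR script was tested on simulated counts. Ratios within libraries used exact permutation tests. The study calls its samples biological triplicates, and p-values measure only the spread between these samples. No pair of replicates agreed within sampling noise (chi-square per degree of freedom 6.14 to 22.06). No batch was given in the labels.

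Exon lengths and 50-base words came from GENCODE M21 on GRCm38, and positions, counted from 1, and promoters from RefSeq on the same build. The comparison of 50-base words was added after the values were seen. Protein sequences were not analysed here.

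The members and lists were chosen with earlier results of these data known. Named are all 10 members, from each wider list up to 4 called genes averaging 1 CPM or more, and Tnf, Lta, Cyld, Rnf31, Casp8, Cflar, Ikbkb, Ikbkg and Map3k7. Of the cell type markers, those of endothelial cells summed to at most 0.81 CPM and 0 of 4 could be tested. Of the wider lists, 1 gene is not reported here, and the counts of the lists leave it out.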

Additional observations from a re-analysis of the deposited data

How the results depend on the processing

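The number of members called lower was 2 in place of 1 with upper-quartile scaling, library size only, no filter, DESeq2's Wald test and the GC content and length correction, and 0 to 3 over the fits that each left out 1 library. Tnfrsf1b was called under every alternative other than 3 of the 6 leave-out fits, and 0 members were called higher under any of the 15. For the wider pathway, the count of genes called lower was 4, and 2 with the replicate block, 2 with DESeq2 and 1 with limma voom. It was 6 without a filter, where more genes were tested, 7 with the GC content and length correction and 0 to 7 over the leave-out fits. The count called higher was 0, and 2 with the GC content and length correction and 0 to 1 over the leave-out fits. Over all tested genes, 210 were higher and 439 lower without a filter, where more genes were tested than the 13084 of the main fit. With the GC content and length correction, over the same 13084 genes, 367 were higher and 472 lower. There 56.3% of the calls were lower in place of 70.0%. The leave-out fits gave 44 to 269 higher and 116 to 487 lower genes.

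Log2 fold changes of genes that were not called changed sign when 1 library was left out: Tradd ranged from -0.058 to 0.11, Traf1 from -0.033 to 0.069, Traf2 from -0.069 to 0.040, Birc2 from -0.054 to 0.083, Casp8 from -0.056 to 0.011 and Map3k7 from -0.008 to 0.048. The log2 difference of the Tnfaip3 to Tnip1 ratio ranged from -0.083 to 0.049. The cause of these changes was not tested. The median log2 fold change of all genes was 0.0025, and lay between -0.0074 and 0.008 with the other scalings and the GC content and length correction.

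Libraries of the same number did not deviate together over the tested genes (correlations of -0.04, 0 and 0.02). No pairing by number was seen in this measure, which could miss a weak one. With the replicate block, 1 member was lower and 0 higher, and 118 and 300 genes were higher and lower over all. With 3 libraries a group, differences smaller than the printed intervals were not resolved.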
